A study of Mus musculus with 40 samples.

Results

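The metallothionein genes Mt1, Mt2 and Mt3, the zinc sensor gene Mtf1 and the zinc exporter gene Slc30a1 were followed in the forebrain of mouse embryos that carry an added copy of Chd8 (KI in the labels, a duplication in the study's title) and of wild-type (WT) embryos. The 5 genes were chosen by symbol, with results of these data in view, and all 5 are listed in both tables used here, out of 15449 genes at embryonic stage E18.5, shortly before birth, and 17940 at E14.5, within cortical neurogenesis. RNA sequencing of polyadenylated RNA was done on 5 KI and 5 WT male forebrains per stage, per the labels. Where the added copy sits in the genome and which promoter drives it are not given in the sources used here. Litters are not given in the labels, so p-values reflect the spread between these samples, whatever its source. The chromatin immunoprecipitation and ATAC-seq libraries of the series were not analysed here.

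Metallothioneins are small cysteine-rich proteins that bind zinc and copper and buffer the free metal in the cell. When zinc rises, the zinc-finger factor MTF-1, the product of Mtf1, enters the nucleus and binds short metal response elements in promoters, and Mt1, Mt2 and the zinc exporter gene Slc30a1 are its classic targets. In the brain Mt1 and Mt2 are made mainly by glia, while Mt3 is the brain-enriched form, known as growth inhibitory factor, and responds little to zinc. Mt1 and Mt2 are also induced by glucocorticoids, oxidative stress and inflammatory cytokines. Mt4, the form of stratified epithelia, is listed at neither stage.

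The promoters of these genes are shown because the metal response element is what links MTF-1 to its targets. Each is a window of 300 bases, 250 before and 50 after a RefSeq start site in the GRCm38.p6 build, on the plus strand. The Mt1 window is chr8:94178839-94179138, the Mt2 window chr8:94172368-94172667, the Mt3 window chr8:94152357-94152656 and the Slc30a1 window chr1:191906531-191906830. The start site of the Mt1 window lies 206 bases downstream of the start of the annotated gene, and that of the Slc30a1 window 84 bases downstream. Capitals mark every match to the core of the metal response element, TGCACNC or TGCGCNC, searched on both strands.
Mt1: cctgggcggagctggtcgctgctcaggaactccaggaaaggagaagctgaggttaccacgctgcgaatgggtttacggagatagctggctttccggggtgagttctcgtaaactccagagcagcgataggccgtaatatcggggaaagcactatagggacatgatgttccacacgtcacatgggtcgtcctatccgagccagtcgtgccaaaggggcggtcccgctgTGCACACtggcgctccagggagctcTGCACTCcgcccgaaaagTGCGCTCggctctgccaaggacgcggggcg
Mt2: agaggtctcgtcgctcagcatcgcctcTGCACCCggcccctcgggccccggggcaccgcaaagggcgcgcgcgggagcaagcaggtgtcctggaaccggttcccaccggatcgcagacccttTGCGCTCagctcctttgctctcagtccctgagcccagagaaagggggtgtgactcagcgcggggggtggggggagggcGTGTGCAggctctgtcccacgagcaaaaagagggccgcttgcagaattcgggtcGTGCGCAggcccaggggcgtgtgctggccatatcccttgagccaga
Mt3: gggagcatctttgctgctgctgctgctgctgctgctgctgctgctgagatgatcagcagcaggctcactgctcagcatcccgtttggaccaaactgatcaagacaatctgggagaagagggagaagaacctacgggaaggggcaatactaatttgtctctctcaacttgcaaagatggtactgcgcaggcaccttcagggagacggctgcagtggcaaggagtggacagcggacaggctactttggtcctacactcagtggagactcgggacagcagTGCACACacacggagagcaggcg
Slc30a1: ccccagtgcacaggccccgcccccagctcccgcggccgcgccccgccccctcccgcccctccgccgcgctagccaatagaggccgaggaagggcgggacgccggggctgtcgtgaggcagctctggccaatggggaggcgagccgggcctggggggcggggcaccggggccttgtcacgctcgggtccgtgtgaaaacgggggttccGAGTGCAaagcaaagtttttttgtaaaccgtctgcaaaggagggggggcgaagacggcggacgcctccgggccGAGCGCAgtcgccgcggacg
No matches overlapped one another. The Mt2 window held 4 matches, as many as or more than which were found in 0.517% of the 32851 RefSeq promoter windows of the same length. The Mt1 window held 3 (3 or more in 1.97% of all windows), the Slc30a1 window 2 (2 or more in 7.11%) and the Mt3 window 1 (1 or more in 25.7%). Among the windows of genes tested at either stage the shares were higher, 0.922% for 4 or more matches, 3.37% for 3 or more, 11.8% for 2 or more and 36.7% for 1 or more. The Mtf1 window, chr4:124802299-124802598, held 0. Bases outside the windows were not searched, so the counts, and the order of Mt2 and Mt1, may depend on the start site of each window. The 3 matches of Mt1 began at positions −23, 3 and 21 from the start site of its window, and those of Mt2 at −223, −128, −50 and 5. The antioxidant response core TGACNNNGC was found once in the Mt2 window and once in that of Slc30a1, and in 12.4% of all windows.

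**Figure D1:**
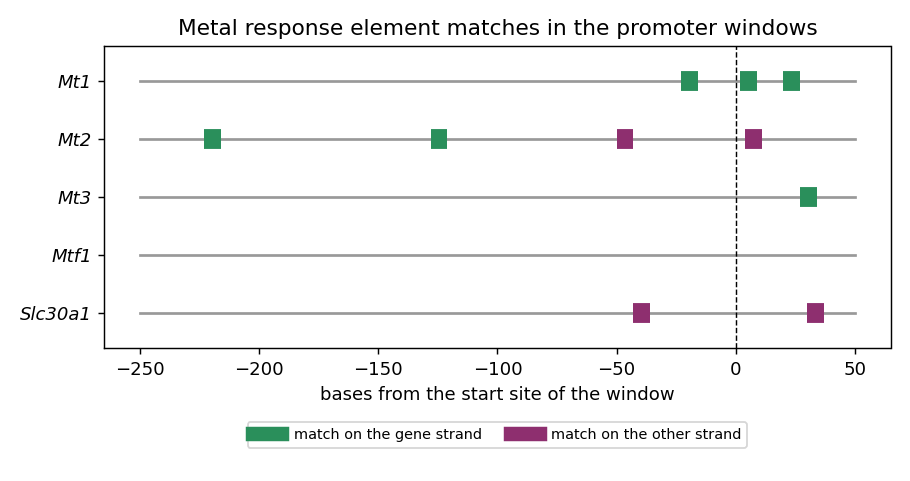
Positions of metal response element matches (boxes) in the 5 promoter windows of 300 bases, in bases from the start site of the window (dashed line); colour gives the strand of the match. Mt2 has 4 boxes, Mt1 3, Slc30a1 2, Mt3 1 and Mtf1 0.

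The values are the authors' own DESeq2 comparison of KI with WT at each stage. They give per gene a mean normalized count over the 10 libraries of a stage, a log2 fold change, its standard error (SE) and a p-value adjusted over all genes. The direction was read from Chd8, which stood at 0.51 (SE 0.038) at E18.5 and 0.64 (SE 0.031) at E14.5 per the authors' deposited table, so a positive value means higher in KI. The tables used here hold no value per library, and depth per library is unknown. Genotype means are therefore given as the pair of means that the mean normalized count and the fold change imply for 5 libraries against 5. Counts are not divided by transcript length, so levels are not compared between genes, and the stages were normalized separately. A gene is called changed at an adjusted p under 0.05, which 0.0662% of 13601 tested genes reached at E18.5 (0.0441% higher in KI and 0.0221% lower) and 1.21% of 13417 at E14.5 (0.738% higher in KI and 0.47% lower). The calls at E14.5 were 99 higher and 63 lower, and 25 higher and 7 lower when the statistics were rescaled by their own centre and spread.

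Of the 5 genes, Mt1 was called changed, at E14.5. The members' differences entered into how they were chosen, so the counts here describe them and support nothing further. At E18.5 the DESeq2 test called 0 of the 5, with 1 at an unadjusted p under 0.05, a level that 5.96% of all tested genes reached. At E14.5 it called 1 of the 5, with 3 at an unadjusted p under 0.05, a level reached by 11.5% of all tested genes. The median log2 fold change of the 5 was −0.12 at E18.5 and 0.20 at E14.5, beside medians of 0.00 and 0.00 over all genes tested.

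Mt1 (NCBI gene ID 17748, chr8:94178883-94180327 in GRCm38) differed by genotype at E14.5. At E18.5 its implied means were 365.0 normalized counts in KI and 347 in WT, with a log2 fold change of 0.07 (SE 0.127, adjusted p = 0.99992) per the authors' deposited table. At E14.5 its implied means were 363 normalized counts in KI and 230.2 in WT, with a log2 fold change of 0.66 (SE 0.111, adjusted p = 4.91e-06) per the authors' deposited table. KI forebrain was thus 57.7% above WT at E14.5, with a 95% interval of 0.44 to 0.88 on the log2 scale, while the interval at E18.5 ran from −0.18 to 0.32. By log2 fold change Mt1 ranked 16 from the top among the 13417 genes tested at E14.5, and by p-value 9.

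Mt2 (gene ID 17750, chr8:94172618-94173567), whose start lies 6.26 kb from that of Mt1 and which shares its metal buffering role, was not called at either stage. At E18.5 it stood at −0.24 (SE 0.116, adjusted p = 0.805 by DESeq2) per the authors' deposited table, with implied means of 354 normalized counts in KI and 418 in WT. At E14.5 it stood at 0.55 (SE 0.218, adjusted p = 0.223 by DESeq2) per the authors' deposited table, with implied means of 398 in KI and 271 in WT. The size of the E14.5 difference was near that of Mt1, but its SE was 0.218, larger than that of 99.7% of the 2437 genes with a mean normalized count within a factor of 1.5. Its 95% interval was −0.47 to −0.01 at E18.5 and 0.13 to 0.98 at E14.5.

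Mt3 (gene ID 17751, chr8:94152607-94154148), the brain-enriched form, was not called either. Its implied means were 1115 normalized counts in KI and 1263 in WT at E18.5, with a log2 fold change of −0.18 (SE 0.146, adjusted p = 0.99992 by DESeq2) per the authors' deposited table. At E14.5 they were 1185 in KI and 1030.3 in WT, with a log2 fold change of 0.20 (SE 0.068, adjusted p = 0.114 by DESeq2) per the authors' deposited table. The intervals were −0.47 to 0.11 at E18.5 and 0.07 to 0.34 at E14.5. All 3 metallothioneins were thus above 0 at E14.5, and at E18.5 Mt1 alone was.

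The metallothioneins had larger errors than most genes of like level. At E18.5 the SEs of Mt1, Mt2 and Mt3 exceeded those of 95.3%, 93.6% and 98.8% of the tested genes with a mean normalized count within a factor of 1.5. At E14.5 the shares were 93.8% for Mt1, 99.7% for Mt2 and 93.7% for Mt3. For Mtf1 the share was 56.8% at E18.5 and 18.4% at E14.5, and for Slc30a1 32.3% at E18.5 and 94.5% at E14.5.

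**Figure D2:**
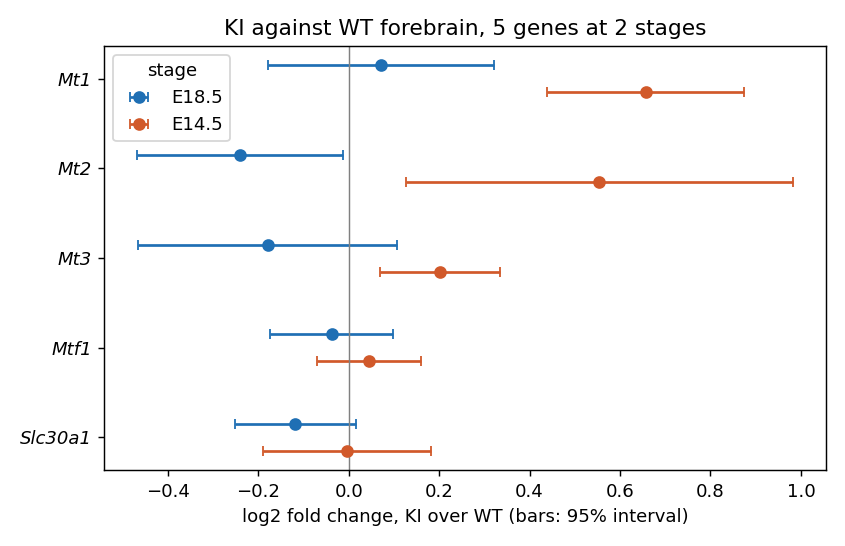
Log2 fold change of KI over WT forebrain for the 5 genes (x axis; points) with 95% intervals (bars), E18.5 above E14.5 for each gene. Mt1 stands at 0.07 and 0.66, Mt2 at −0.24 and 0.55 and Mt3 at −0.18 and 0.20, while the intervals of Mtf1 and Slc30a1 include 0 at both stages.

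Mtf1 (gene ID 17764, chr4:124802549-124849800), the gene of the zinc sensor, was not called at either stage. It stood at −0.04 (SE 0.069, adjusted p = 0.99992 by DESeq2) at E18.5 and 0.05 (SE 0.059, adjusted p = 0.834) at E14.5 per the authors' deposited table. The implied means were 705 normalized counts in KI and 724 in WT at E18.5, and 645 in KI and 625 in WT at E14.5. Its 95% intervals were −0.17 to 0.10 at E18.5 and −0.07 to 0.16 at E14.5. They concern the RNA of Mtf1, and the activity of MTF-1 was not measured.

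Slc30a1 (gene ID 22782, chr1:191906697-191913248), which encodes the zinc exporter ZnT1 of the plasma membrane, was not called. It stood at −0.12 (SE 0.068, adjusted p = 0.949 by DESeq2) at E18.5 and 0.00 (SE 0.094, adjusted p = 0.994) at E14.5 per the authors' deposited table. The implied means were 543 normalized counts in KI and 589 in WT at E18.5, and 446 in KI and 448 in WT at E14.5. Its 95% intervals were −0.25 to 0.02 at E18.5 and −0.19 to 0.18 at E14.5. Differences between genes in the effect of genotype were not tested.

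The difference between stages in the effect of genotype (E18.5 minus E14.5) was below 0 for all 5 genes. It was −0.59 for Mt1 (SE 0.169, 95% interval −0.92 to −0.26), −0.79 for Mt2 (SE 0.247, −1.28 to −0.31) and −0.38 for Mt3 (SE 0.161, −0.70 to −0.07). For Mtf1 it was −0.08 (SE 0.091, −0.26 to 0.09) and for Slc30a1 −0.11 (SE 0.117, −0.34 to 0.11). In a normal test of the difference, adjusted with Benjamini-Hochberg over the 13106 genes tested at both stages, none of these passed. The adjusted p was 0.639 for Mt1, 0.689 for Mt2 and 0.999 for Mt3, Mtf1 and Slc30a1 alike. Called genes made up 0.0% of those tested, with 593 genes, or 4.52%, at an unadjusted p under 0.05, Mt1, Mt2 and Mt3 among them. The difference of Mt2 ranked 6 from the lowest of the 13106 and that of Mt1 46. The 3 metallothioneins were measured in the same libraries, so their differences are not independent of one another.

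**Figure D3:**
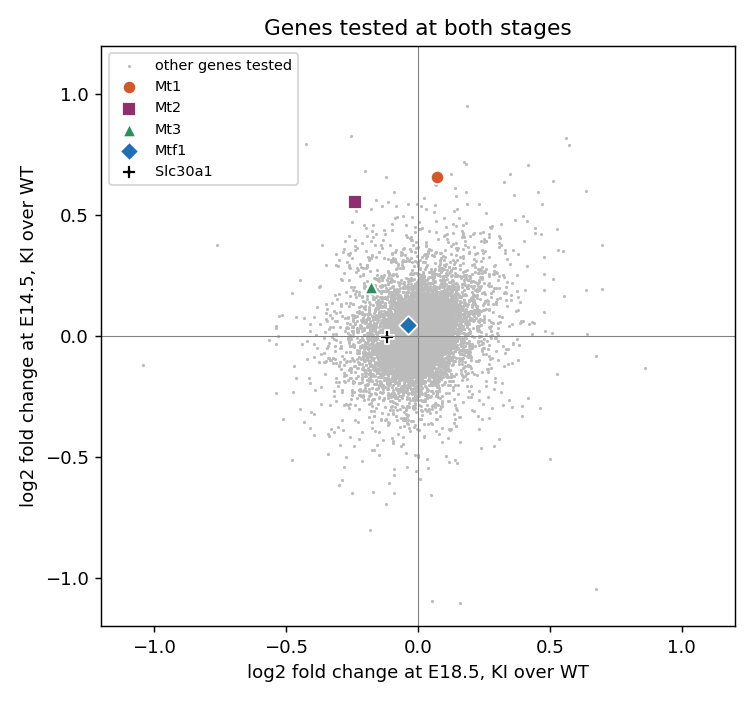
Log2 fold change of KI over WT at E18.5 (x axis) and E14.5 (y axis) for the 13106 genes tested at both stages (grey), with the 5 genes marked; 1 gene lies outside the axes. Mt1 and Mt2 stand at 0.66 and 0.55 on the y axis, with Mt1 right and Mt2 left of 0 on the x axis.

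By the distance between pairs of log2 fold changes at the 2 stages, the genes most like Mt1 were Plekhg4 (distance 0.0336), Phf19 (0.0548), Ermn (0.0833), Irs4 (0.121) and Myh14 (0.152), out of 11714 other genes that averaged 50 normalized counts or more at both stages. Of these, Phf19, a Polycomb-like protein, stood at 0.12 (SE 0.157) at E18.5 and 0.67 (SE 0.107) at E14.5 per the authors' deposited table. The genes most like Mt2 were Hba-a2 (0.105), an adult globin, Lrrc27 (0.116), Pdia5 (0.165), Dok3 (0.168) and Snhg8 (0.173). Likeness over 2 comparisons is coarse, and the SE of Hba-a2 was 0.432 at E18.5 and 0.272 at E14.5 per the authors' deposited table.

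Mt3, Mt2 and Mt1 lie in a row on chromosome 8, with the starts of Mt3 and Mt4 at 26.3 kb and 41.7 kb upstream of that of Mt1. The tested genes around the cluster were without a call. Of 15 other annotated genes within 250 kb of it, 7 were tested at each stage, and DESeq2 called 0 at E18.5 (1 at an unadjusted p under 0.05) and 0 at E14.5 (0 at that level). Their median log2 fold change was 0.02 at E18.5 and −0.02 at E14.5. Nup93, a nuclear pore gene on the Mt1 side, stood at −0.01 (SE 0.055) at E18.5 and 0.02 (SE 0.048) at E14.5 per the authors' deposited table. Bbs2, a cilium gene of the BBSome on the Mt4 side, stood at −0.17 (SE 0.076, unadjusted p = 0.0229 by DESeq2) at E18.5 and −0.06 (SE 0.072) at E14.5 per the authors' deposited table. Ogfod1, an oxygenase gene, was at −0.03 (SE 0.070) at E18.5 and 0.02 (SE 0.066) at E14.5 per the authors' deposited table. Nudt21, a subunit of the pre-mRNA cleavage factor, was at 0.03 (SE 0.073) at E18.5 and −0.02 (SE 0.054) at E14.5 per the authors' deposited table.

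**Figure D4:**
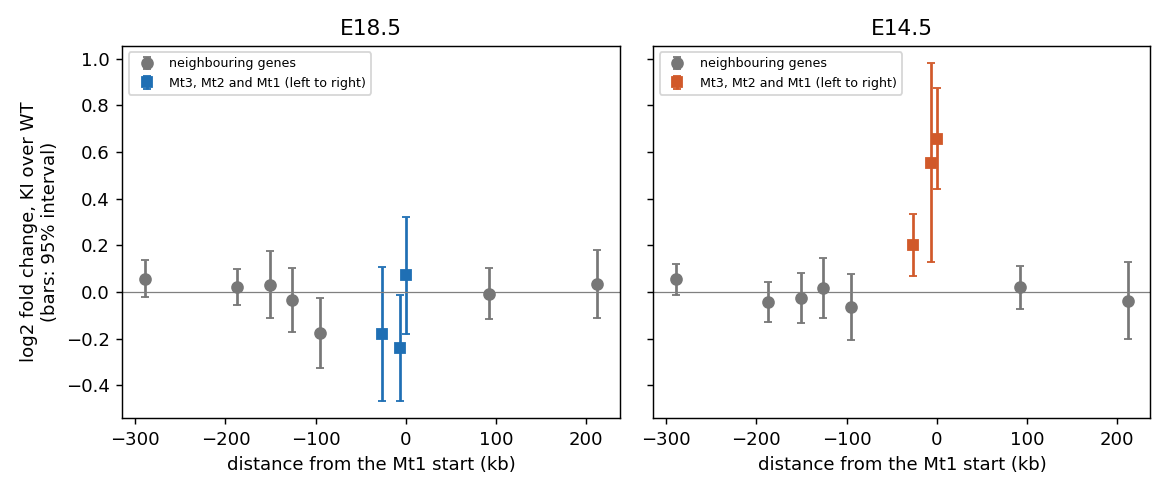
Log2 fold change of KI over WT (y axis, bars 95% intervals) against distance from the Mt1 start in kb (gene starts for metallothioneins, midpoints for the 7 neighbours), E18.5 left and E14.5 right. At E14.5 Mt3, Mt2 and Mt1 stand at 0.20, 0.55 and 0.66 while the neighbours lie between −0.06 and 0.05.

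Zinc transporter genes showed no call at either stage. Most proteins of the Slc30 family, grouped here as exporters, move zinc out of the cytosol. Of the 10 genes of the family 8 were tested at E18.5 and 7 at E14.5. DESeq2 called 0 at each stage, with 0 at an unadjusted p under 0.05 at each, and the median log2 fold change was −0.01 at E18.5 and −0.02 at E14.5. At E18.5 the range ran from −0.12 for Slc30a1 to 0.14 for Slc30a3, which loads zinc into synaptic vesicles, per the authors' deposited table. At E14.5 it ran from −0.14 for Slc30a6 to 0.04 for Slc30a9 per the authors' deposited table, where Slc30a3 had a mean normalized count of 19.1 and no adjusted p.

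Importers of the Slc39 family bring zinc into the cytosol, and of its 14 genes 12 were tested at E18.5 and 11 at E14.5. DESeq2 called 0 at each stage, with 1 at an unadjusted p under 0.05 at each, and the medians were 0.00 at E18.5 and 0.00 at E14.5. The gene at that level at E18.5 was Slc39a12, at 0.54 (SE 0.245, adjusted p = 0.773) with a mean normalized count of 50.1 per the authors' deposited table. At E14.5 it was Slc39a3, at −0.16 (SE 0.052, adjusted p = 0.0986 by DESeq2) per the authors' deposited table. Slc39a1, an importer of the plasma membrane, was at 0.05 (SE 0.079) at E18.5 and 0.02 (SE 0.057) at E14.5 per the authors' deposited table.

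Other genes reported as MTF-1 targets, among them genes of glutathione and selenium metabolism, were without a call. DESeq2 called 0 of the 9 at either stage, with 0 at an unadjusted p under 0.05 at E18.5 and 1 at E14.5. Of the 9, 4 were above 0 at E18.5 and 1 at E14.5, with medians of −0.01 and −0.08. Slc39a10, a zinc importer that MTF-1 represses, stood at 0.03 (SE 0.035) at E18.5 and −0.05 (SE 0.040) at E14.5 per the authors' deposited table. Gclc, the rate-limiting enzyme of glutathione synthesis, stood at −0.07 (SE 0.069) at E18.5 and −0.08 (SE 0.054) at E14.5 per the authors' deposited table. The iron exporter gene Slc40a1 stood at −0.09 (SE 0.157) at E18.5 and −0.25 (SE 0.126, adjusted p = 0.429 by DESeq2) at E14.5 per the authors' deposited table. Slc40a1 was the gene at an unadjusted p under 0.05 by DESeq2 at E14.5, and it is counted again among the iron genes. Slc39a10 is also counted among the importers and Gclc among the NRF2 genes. Since MTF-1 represses Slc39a10, the count above 0 and the median mix directions of regulation.

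Copper and iron genes were likewise without a call. Of the copper genes tested, 10 at each stage, 5 were above 0 at E18.5 and 5 at E14.5, with 0 at an unadjusted p under 0.05 at either stage by DESeq2. They ranged at E18.5 from −0.12 for Atp7b, a copper pump, to 0.12 for Cox17, a copper chaperone, and at E14.5 from −0.09 for Cox17 to 0.23 for Atp7b, per the authors' deposited table. Of the 11 iron genes tested at each stage, 5 were above 0 at E18.5 and 5 at E14.5, with 2 and 1 at an unadjusted p under 0.05 by DESeq2. The ferritin genes Fth1 and Ftl1, which store iron, stood at 0.06 and 0.10 (SE 0.057 and 0.043) at E18.5 and at 0.05 and 0.08 (SE 0.052 and 0.051) at E14.5 per the authors' deposited table.

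Genes of other responses known to induce Mt1 and Mt2 were read beside them. Of the 12 glucocorticoid response genes, DESeq2 called 0 at each stage, with 1 at an unadjusted p under 0.05 at E18.5 (Per1, −0.17, SE 0.050, adjusted p = 0.184) and 0 at E14.5, per the authors' deposited table. Fkbp5 and Sgk1, widely used readouts of the glucocorticoid receptor, stood at 0.01 and −0.01 (SE 0.064 and 0.081) at E18.5 and at 0.01 and 0.10 (SE 0.056 and 0.094) at E14.5 per the authors' deposited table. The median of these 12 genes was −0.02 at E18.5 and 0.06 at E14.5.

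Of the NRF2 antioxidant genes, 10 were tested at E18.5 with 0 called and 0 at an unadjusted p under 0.05 by DESeq2, and 11 at E14.5 with 1 called and 2 at that level. The called gene was Gsta4, a glutathione S-transferase that clears lipid peroxidation products, which rose at E14.5 at 0.64 (SE 0.154, adjusted p = 0.00704) and stood at 0.33 (SE 0.278) at E18.5 per the authors' deposited table. Hmox1, a heme oxygenase, stood at −0.35 (SE 0.198) at E18.5 and 0.07 (SE 0.169) at E14.5 per the authors' deposited table. The median was 0.01 at E18.5 and 0.04 at E14.5.

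Of the heat shock genes, 9 were tested at E18.5 and 8 at E14.5, and of the STAT3 and acute phase genes 6 and 5. DESeq2 called 0 of them at either stage, with 0 at an unadjusted p under 0.05. The heat shock medians were 0.00 at E18.5 and −0.01 at E14.5, and those of the STAT3 genes −0.04 and −0.03. Socs3, the feedback inhibitor of STAT3 signalling, stood at −0.06 (SE 0.132) at E18.5 and −0.03 (SE 0.102) at E14.5 per the authors' deposited table.

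**Figure D5:**
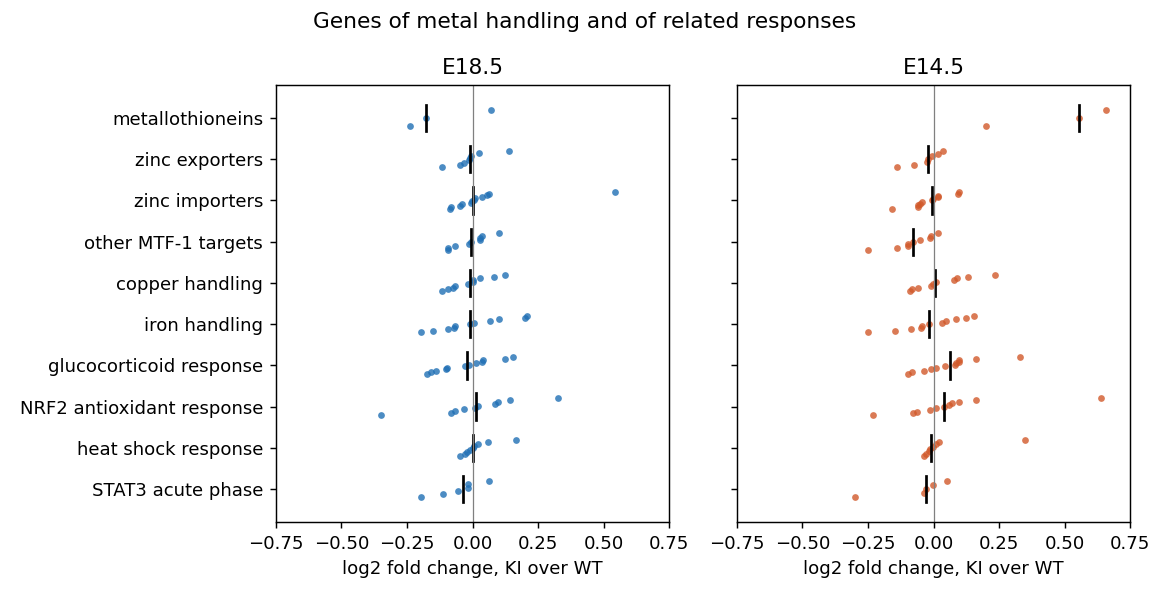
Log2 fold change of KI over WT (x axis) for the tested genes of 10 lists (points, spread vertically for legibility) with the list median (black tick), E18.5 left and E14.5 right. The metallothioneins at E14.5 have a median of 0.55, and the medians of the other lists shown lie between −0.08 and 0.06 at that stage. Cell type lists are not drawn. Among these, the erythroid and the meningeal and fibroblast markers had E14.5 medians of 0.50 and 0.34, over 4 tested genes each.

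Cell type markers were read because glia make most of the Mt1 and Mt2 of the brain. In whole forebrain a change in the number of cells of a type and a change in RNA per cell cannot be told apart. All 12 markers of radial glia and astrocytes and all 8 of neurons were listed at both stages. So were all 8 of choroid plexus, 8 of endothelium and 7 of microglia, so being listed does not mark the tissue. Of the 12 markers of radial glia and astrocytes, 3 were above 0 at E18.5 and 7 at E14.5, with medians of −0.05 and 0.05, and DESeq2 called 0 at either stage, with 2 and 4 at an unadjusted p under 0.05. Their summed implied levels were 31317 normalized counts in KI and 32795 in WT at E18.5, and 22365 in KI and 22142 in WT at E14.5. The first markers as listed, the glutamate transporter gene Slc1a3 and the lipid-binding protein gene Fabp7, stood at −0.10 and −0.12 (SE 0.054 and 0.047) at E18.5 and at −0.07 and −0.06 (SE 0.050 and 0.044) at E14.5 per the authors' deposited table. The lowest were Aldh1l1 at E18.5 (−0.17, SE 0.074), which with Fabp7 made up those at an unadjusted p under 0.05 there, and Clu at E14.5 (−0.13, SE 0.097), per the authors' deposited table. The highest at E14.5 were Hes1 and Apoe. Hes1, a Notch target of radial glia, stood at −0.09 (SE 0.145) at E18.5 and 0.23 (SE 0.079, adjusted p = 0.132 by DESeq2) at E14.5 per the authors' deposited table. Apoe, the glial lipid carrier, stood at 0.01 (SE 0.169) at E18.5 and 0.24 (SE 0.071, adjusted p = 0.0644 by DESeq2) at E14.5 per the authors' deposited table.

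The summed levels of blood and of meningeal markers were higher in KI at E14.5, where Mt1 was higher too, and that of blood also at E18.5. The sums carry no error. Of the 6 erythroid genes, 3 were listed at E18.5, where Hbb-y, Hba-x and Hbb-bh1 are not listed, and 6 at E14.5. Their summed implied level was 978 normalized counts in KI and 821 in WT at E18.5, and 3156 in KI and 2269 in WT at E14.5. Of the 4 tested at E14.5, 2 rose, the embryonic globins Hbb-y at 0.50 (SE 0.068, adjusted p = 1.64e-09 by DESeq2) and Hba-x at 0.59 (SE 0.149, adjusted p = 0.0118) per the authors' deposited table. Hba-a1, the erythroid gene with the highest mean count there, was not called, at 0.45 (SE 0.385, adjusted p = 0.720 by DESeq2) per the authors' deposited table. At E18.5 DESeq2 called 0 of the 2 erythroid genes tested. Hba-a1, with a mean normalized count of 788, carried most of that sum and stood at 0.28 (SE 0.362) per the authors' deposited table. Alas2 stood at 0.10 (SE 0.209) and Hbb-bs, without an adjusted p, at −0.07 (SE 0.486), so the E18.5 sum does not establish a rise. The markers of meninges and fibroblasts summed to an implied 1542 normalized counts in KI and 1581 in WT at E18.5, over 8 genes, and to 305 in KI and 239 in WT at E14.5, over 7 genes, since Lum is not listed there. At E18.5 only 1 of the 8 was tested, Foxc1, at −0.09 (SE 0.414) and not called. The SEs of the 8 ran from 0.414 to 1.88 at E18.5, so that sum shows neither a difference nor the lack of one. Of the 4 of these tested at E14.5, DESeq2 called 0, with 1 at an unadjusted p under 0.05, and Col1a2, a fibrillar collagen gene, stood at 0.61 (SE 0.207, adjusted p = 0.118) per the authors' deposited table. The part of blood and meninges in the rise of Mt1 was not tested.

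Of the 8 endothelial and 5 microglial markers tested at each stage DESeq2 called 0, with 0 at an unadjusted p under 0.05. For the 8 endothelial genes the implied sum was 5193 normalized counts in KI and 5093 in WT at E18.5, and 4014 in KI and 3973 in WT at E14.5. For the 7 microglial genes listed it was 877 in KI and 811 in WT at E18.5, and 595 in KI and 591 in WT at E14.5. The 8 choroid plexus genes summed to 3672 in KI and 3192 in WT at E18.5, and to 297 in KI and 293 in WT at E14.5, with 2 tested and 0 called or at an unadjusted p under 0.05 by DESeq2 at each stage. Ttr, with a mean normalized count of 2718, carried most of the E18.5 sum. It had an SE of 1.88 and no p-value there, so that sum shows neither a difference nor the lack of one. The 8 neuronal genes summed to 158038 in KI and 154627 in WT at E18.5, and to 111798 in KI and 115281 in WT at E14.5. Of these Neurod6, a factor of excitatory cortical neurons, fell at E14.5, at −0.20 (SE 0.046, adjusted p = 0.00438 by DESeq2), and stood at −0.02 (SE 0.060) at E18.5 per the authors' deposited table.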

How the data were processed

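RNA sequencing libraries of E18.5 and E14.5 forebrain were used, grouped by their titles. Per the submitters' processing notes, reads were handled with tools that include HISAT2 2.1.0, Trimmomatic 0.39, DESeq2 1.26.0 and featureCounts 2.0.0, and the build was mm10. Per the file headers each deposited table gives a mean normalized count (a signal averaged over libraries by the authors), a log2 fold change with its SE, a Wald score, a p-value and an adjusted p. The deposited score was the log2 fold change over its SE, and recomputing Benjamini-Hochberg over genes with an adjusted p returned the deposited one. No counts per library were used, so a fit on counts was not made.

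Gene IDs were matched to RefSeq symbols of GRCm38.p6, 15064 of 15449 at E18.5 (97.5%) and 17192 of 17940 at E14.5 (95.8%). The lowest mean of a gene with an adjusted p was 32.7 at E18.5 and 25.2 at E14.5, and genes without one stay out of counts and medians. Implied means assume equal weight for 5 libraries of each genotype. The stage difference was tested by its SE, the root of the summed squares of both SEs, a step tested on simulated data. Python 3.11.15, numpy 2.4.6, pandas 2.3.3, SciPy 1.17.1 and matplotlib 3.10.9 were used. Promoter windows are RefSeq's, and all 5 genes and Mt4 matched one by symbol.

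The members and the 17 gene lists were chosen with earlier results of these data known. The text names the 5 genes, Mt4, Chd8, the 4 genes nearest the cluster, list members that were called, stood first or at an end of the range, and the 5 genes nearest in pattern to Mt1 and Mt2. Other named list members (Ftl1, Socs3, Hes1 and the like) that fall outside these were chosen after their values were seen. The alternatives were another set of genes for the adjustment, another adjustment, an empirical null and centred log2 fold changes. One further marker gene was left out of its list and of the sums and is not reported here.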

Additional observations from a re-analysis of the deposited data

How the results depend on the processing

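The call of Mt1 at E14.5 held under every alternative adjustment run, with an adjusted p between 4.18e-06 and 0.00159. No other member or stage difference passed in any of them. The alternatives rework the same deposited statistics of genes chosen with results in view, so they describe the call and add no support. The lowest adjusted p under the alternatives was 0.205 for Mt2 and 0.103 for Mt3 at E14.5, 0.622 for Mt2 at E18.5, and 0.238 for the stage difference of Mt1. Centring on the median of all genes, −0.0018 at E18.5 and −0.0005 at E14.5, moved values too little to be able to turn the direction of Mt1 at E14.5. At E18.5, where 9 genes were called, 14 were among genes averaging 100 normalized counts or more, 4 with Benjamini-Yekutieli and 19 with the empirical null (scale 0.950). At E14.5, where 162 were called, 56 were with Benjamini-Yekutieli and 32 with the empirical null (scale 1.21). The stage difference stayed at 0 genes in all of them. Counted singly, the cores of the metal response element were found in 2.28% to 6.05% of windows, against 25.7% for the pair of motifs. No paired analysis was possible because the tables used here hold no values per library, and for the same reason no replicate could be left out. Depth per library is unknown, and precision rests on the authors' SEs.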

Other observations

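Genes with many metal response element matches were read by genotype as well. Of the tested genes other than the 5, 119 at E18.5 and 116 at E14.5 had 4 or more matches in a promoter window, and their median log2 fold change was 0.00 at E18.5 and −0.02 at E14.5. DESeq2 called 0 of the 119 at E18.5 and 3 of the 116 at E14.5 (2.59%). Among genes with no match, it called 3 of 6128 at E18.5 and 75 of 6025 at E14.5 (1.24%), with medians of 0.00 and 0.00. Between these, DESeq2 called 3 of 2960 genes with 1 match, 1 of 1068 with 2 and 0 of 320 with 3 at E18.5. At E14.5 it called 37 of 2932, 10 of 1057 and 4 of 309, in the same order. The called share at E14.5 was highest with 4 or more matches, but it rests there on 3 called genes. The groups with most matches hold too few called genes to show whether the share changes with the number of matches. These are descriptions, with no test.

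Markers of choroid plexus and meninges had wide errors at E18.5. The SEs of the 8 choroid plexus genes ran from 0.438 to 1.88 at E18.5 and from 0.131 to 1.21 at E14.5, and those of the meningeal genes from 0.414 to 1.88 at E18.5 and from 0.148 to 1.04 at E14.5, per the authors' deposited table. Ttr, the transthyretin of choroid plexus, averaged 2718 normalized counts at E18.5 and 5.76 at E14.5 per the authors' deposited table, with tables normalized separately. The SE of Mt3 was 0.146 at E18.5 and 0.068 at E14.5 per the authors' deposited table, and whether it varies with these tissues was not tested.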
